A study of Gallus gallus with 6 samples.

Results

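The genes described here carry blood-vessel growth and endothelin signalling in the embryonic heart: the ligands ANGPT1 and VEGFA, their endothelial receptors TEK, TIE1, KDR and FLT1, the endothelial cadherin CDH5, the endothelin receptor EDNRA, the endothelin-converting enzyme ECE1 and the flow-responsive factor KLF2. These 10 genes were chosen by name, because constriction of the outflow tract (OFT) alters flow and shear, and with earlier results of these data known. Every transcript listed under a member's symbol was kept. Values were read for 7 of the 10, as 8 of 6919 transcripts, and 6 transcripts passed the filter on low values. TEK, TIE1 and KLF2 were not analysed here. RNA was sequenced from whole hearts of Dekalb white chick embryos at Hamburger-Hamilton stage (HH) 29, with 1 heart per library and globin transcripts depleted in every heart. In OFT-banded embryos (hearts 6, 11 and 17) a suture was tied around the OFT and stayed in place until harvest, and sham embryos (hearts 38, 48 and 42) had the same suture placed but not left in. The labels give the tissue as heart and also name outflow tract as the sample type, and the study describes whole hearts. Levels are reads scaled to transcript length and library depth (RPKM), and the test was limma on log2(RPKM + 1), which understates the change of low genes.

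Endothelial cells line the vessels and, as endocardium, the chambers of the heart. Vascular endothelial growth factor (VEGF) drives their growth through the receptor tyrosine kinases KDR and FLT1, of which KDR carries most of the signal and FLT1 largely binds ligand away. Angiopoietin 1 (ANGPT1) comes, in the mouse heart, mainly from cardiomyocytes and supporting cells, and stabilises vessels through the receptor TEK. Endothelins are cut to their active form by ECE1 and act on EDNRA in cushion and outflow mesenchyme, cardiac muscle and neural crest derivatives. In chick hearts endothelin is known for its part in the recruitment of the Purkinje fibres of the conduction system.

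ANGPT1 was lower in every OFT-banded heart than in every sham heart. No other member had so small a spread within groups beside the distance between them. EDNRA and ECE1 were also lower in OFT-banded hearts without overlap, CDH5 and KDR were lower by value with overlap, and FLT1 had nearly the same mean in both groups. None of these differences passed the test. Over the 4726 transcripts tested, limma gave an adjusted p under 0.05 to 0 (0%), while 405 (8.57%) fell under 0.05 before adjustment. The 6 tested members had a median log2 fold change of -0.32, against -0.07 over all tested transcripts. By value 5 of the 6 were lower, against 63.2% of all tested transcripts, and 3 were lower without overlap, where 11.0% of all tested transcripts were. Unadjusted p under 0.05 in the lower direction was reached by 3 of the 6, against 5.29% of all tested transcripts, and in the higher direction by 0 of the 6, against 3.28%. This count of 3 came to 1 without heart 6, 48 or 42 and to 5 without heart 38. Over all tested transcripts, the count of 405 came to 313, 307 and 196 without heart 6, 48 or 42 and to 651 without heart 38. The members were chosen with earlier results of these data known, so these shares only describe them. In RNA of whole hearts, fewer cells of a type and less RNA per cell cannot be told apart.

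**Figure D1:**
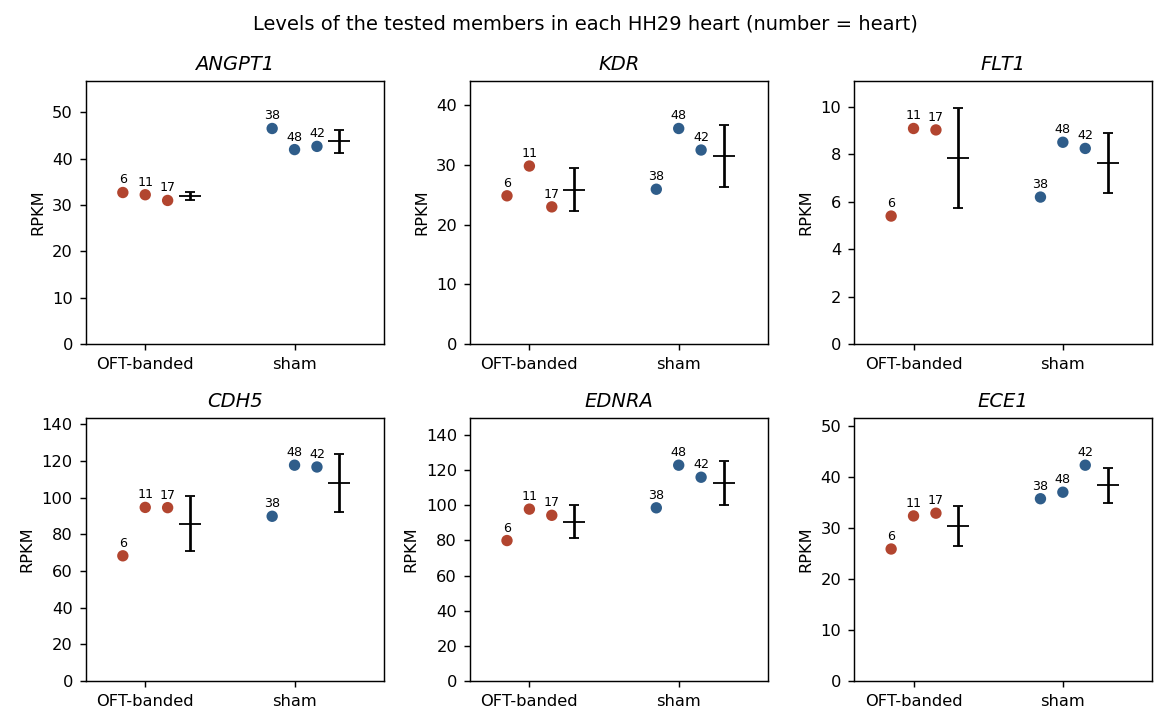
RPKM of the 6 tested members in each heart (points, numbered by heart; red OFT-banded, blue sham), with the group mean and SD of 3 hearts beside them and each axis starting at 0. The OFT-banded hearts lie between 31.0 and 32.7 RPKM for ANGPT1, below all sham hearts, while FLT1 overlaps and hearts 6 and 38 are the lowest of their groups in CDH5, EDNRA and ECE1.

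The hearts differed in ways that touch these values. From the whole-read steps between low microRNA values, depth was estimated to be lowest in heart 42 and highest in heart 11, and 97.0% to 99.3% of the values used came within 0.1 of a whole read. Hearts 6 and 38 had the highest summed RPKM of their groups, and across all tested transcripts heart 6 was the lowest of the OFT-banded hearts in 54.9% and heart 38 the lowest of the sham hearts in 46.5%. The paper reports that the sequenced RNA was partly degraded by repeated freezing and thawing and by the depletion. It gives a range of RNA integrity numbers over the sequenced OFT-banded and sham hearts but no value per heart, so the part of RNA quality was not tested. MYL2, the ventricular myosin light chain and a marker of the labelled tissue, was at 14793 to 21885 RPKM. Of the cell type lists, that of red blood cells had the median log2 fold change farthest from 0, at -1.34, and the 13 rows of the erythroid list summed to 6199 to 12283 RPKM in OFT-banded hearts and 16369 to 41854 RPKM in sham hearts, without overlap. The globin gene HBE made up most of this sum, at 5303 to 10572 RPKM in OFT-banded and 14107 to 36922 RPKM in sham hearts. HBG1 was at 762 to 1537 and 1978 to 4492 RPKM, while HBAA and HBZ did not exceed 0.04 RPKM. Outside the globins, SLC4A1, RHAG, TFRC, GFI1B and FECH were lower by value, with log2 fold changes of -1.87 to -1.01, and CA2 was higher at 0.53. The paper lists HBG1 among the globins targeted for depletion and does not name HBE there. The sum, here called the erythroid level, may thus in part measure globin left after depletion, which was not tested. The 14 rows of the cardiomyocyte list summed to 72267 to 78070 RPKM in OFT-banded and 52070 to 66745 RPKM in sham hearts, also without overlap. Fits with the erythroid level as a covariate are given beside the members and the lists other than the erythroid list. That level differs between the groups without overlap, so it and banding cannot be fully told apart in those fits. The part of the cardiomyocyte level was not tested. A further covariate was the level of genes on the W sex chromosome (W-linked level), and its fits are also given beside the members. The paper does not give the sex of the embryos, and the part of sex in these values was not tested.

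ANGPT1 (NM_001199447), the ligand that activates TEK, was at 32.7, 32.2 and 31.0 RPKM in OFT-banded hearts 6, 11 and 17. In sham hearts 38, 48 and 42 it was at 46.5, 42.0 and 42.7 RPKM. The OFT-banded hearts lay close together and well below the lowest sham heart. The means were 32.0 ± 0.882 RPKM (SD, n = 3) and 43.7 ± 2.45 RPKM (SD, n = 3), so that the OFT-banded mean was 26.8% lower. On the log2 scale the fold change was -0.44 (standard error 0.09, 95% interval -0.64 to -0.23, unadjusted p = 0.00136 and adjusted p = 0.543 from limma). By unadjusted p, ANGPT1 ranked 8 of the 4726 tested transcripts. Exact permutation over the 6 hearts gave a two-sided p = 0.1, the smallest that 3 hearts per group allow. Its level corresponds to an estimated 901 to 1577 reads per kilobase of transcript in each heart. Leaving out each heart in turn moved the fold change only between -0.47 and -0.39, and with the erythroid level as a covariate it was -0.49 (unadjusted p = 0.0304 from limma). That covariate differs between the groups without overlap, so covariate and banding cannot be fully told apart in that fit. With the W-linked covariate the fold change of ANGPT1 was -0.47 (standard error 0.08).

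ANGPT2 (NM_204817), the other angiopoietin of the list and a ligand that in many settings opposes ANGPT1 at TEK, was at 17.7, 20.1 and 13.6 RPKM in OFT-banded hearts and at 14.9, 22.8 and 15.4 RPKM in sham hearts. The groups overlapped (log2 fold change -0.04, standard error 0.20). Within hearts, ANGPT1 was 1.85, 1.61 and 2.28 times ANGPT2 in OFT-banded hearts and 3.12, 1.84 and 2.77 times in sham hearts. This ratio, chosen after the data were seen, overlapped between groups, with the highest ANGPT2 level in sham heart 48 (exact permutation test, two-sided, p = 0.3, adjusted p = 0.914 over 8 ratios). Among the angiopoietin-like genes, secreted relatives that do not act through TEK, ANGPTL1 had a log2 fold change of 0.37 (standard error 0.18, unadjusted p = 0.0815 from limma) and ANGPTL2 of 0.26, at 22.7 to 36.5 RPKM in OFT-banded and 23.6 to 25.9 RPKM in sham hearts. ANGPTL5 lay between 0.55 and 2.24 RPKM over the 6 hearts. Values were read for 13 of the 24 genes of the angiopoietin list, and of the 12 tested 4 were higher and 8 lower by value (6 and 6 without heart 6 or 48), none with an adjusted p under 0.05 from limma and 1, ANGPT1, with an unadjusted p under 0.05. Their median log2 fold change was -0.10. Of all tested transcripts 63.2% were lower by value, and 8.57% had an unadjusted p under 0.05 from limma. With the erythroid covariate 6 genes of the list were higher and 6 lower, with a median of 0.01. FOXO1, a transcription factor held in check by TEK signalling through AKT, was at 10.5 to 12.9 RPKM in OFT-banded and 12.5 to 14.9 RPKM in the sham group, which is -0.28 on the log2 scale (unadjusted p = 0.0746 from limma). SHC1, an adaptor of receptor tyrosine kinases, was at 83.0 to 94.3 against 91.2 to 116 RPKM, again with overlap.

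**Figure D2:**
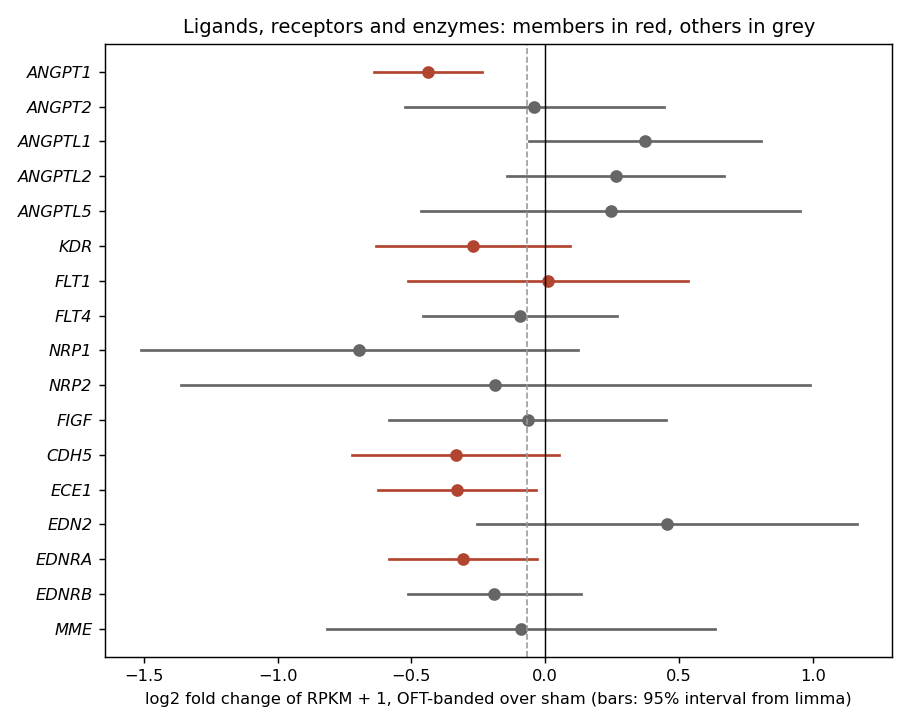
Log2 fold change of RPKM + 1 between OFT-banded and sham hearts (points) with its 95% interval from limma (bars) for the members (red) and other tested ligands, receptors and enzymes of the 3 pathway lists (grey); the solid line marks 0 and the dashed line the median of all tested transcripts, -0.07. The intervals of ANGPT1, ECE1 and EDNRA lie below 0, while those of NRP1 and NRP2 are the widest.

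KDR (NM_001004368), the main signalling receptor for VEGF, was at 24.8, 29.8 and 23.0 RPKM in OFT-banded hearts and at 25.9, 36.1 and 32.5 RPKM in sham hearts. The groups overlapped, since sham heart 38 lay below OFT-banded heart 11. The means were 25.9 ± 3.53 and 31.5 ± 5.15 RPKM (SD, n = 3 each). This gave a log2 fold change of -0.27 (standard error 0.15, 95% interval -0.63 to 0.09, unadjusted p = 0.122 and adjusted p = 0.564 from limma). The value was -0.17 without heart 48, -0.45 with the erythroid covariate and -0.20 with the W-linked covariate.

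FLT1 (NM_204252), the decoy-like receptor for the same ligand, was the lowest of the tested members. It was at 5.40, 9.09 and 9.03 RPKM in OFT-banded hearts and at 6.20, 8.51 and 8.25 RPKM in sham hearts. Heart 6 and heart 38 lay apart below the other 4 hearts, which were all between 8.25 and 9.09 RPKM. Its log2 fold change came to 0.01 (standard error 0.22, 95% interval -0.51 to 0.53, adjusted p = 0.990 from limma), and its sign turned with TPM, with the globin genes left out and without heart 11, 17 or 38. With the erythroid covariate it was 0.17 and with the W-linked covariate 0.20 (standard errors 0.44 and 0.12). An interval of this width does not show that FLT1 was the same in both groups. Within hearts, FLT1 was 0.218, 0.305 and 0.393 times KDR in OFT-banded hearts and 0.239, 0.236 and 0.254 times in sham hearts. The ratio was more spread in OFT-banded hearts, where heart 6 lay below and hearts 11 and 17 above the whole sham group (two-sided exact permutation p = 0.4, adjusted p = 0.914 over 8 ratios).

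VEGFA, the ligand of both receptors, is listed as 2 transcripts, and neither passed the filter. NM_001110355 was listed at 0 in every heart. NM_205042 was at 0.21, 0.33 and 0.34 RPKM in OFT-banded hearts and at 0.22, 0.30 and 0.27 RPKM in sham hearts, with full overlap (exact permutation test, two-sided, p = 0.6). Low values were common among genes listed with several transcripts: 73.8% of 252 such symbols had a summed mean under 1 RPKM, against 26.1% of the 6290 symbols listed once. How reads shared between transcripts of a gene were counted is not given in the sources used here, so the low VEGFA level was not read as a low level of the ligand, and no ratio to KDR was formed.

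Values were read for 14 of the 27 genes of the VEGF list, and of its 13 tested transcripts 12 were lower and 1, FLT1, was higher by value. Of all tested transcripts 63.2% were lower. None of the 13 had an adjusted p under 0.05, none an unadjusted p under 0.05 from limma, and their median log2 fold change was -0.24. The count lower by value was 7 of 13 without heart 6 (median -0.13), 13 of 13 without heart 11, 17 or 38 and 8 of 13 with the erythroid covariate (median -0.07). Without heart 38, 6 of the 13 were lower with an unadjusted p under 0.05 from limma. In that setting the count over all tested transcripts, in either direction, also rose, from 405 to 651 of 4726. NRP1 (NM_204782), a coreceptor that presents VEGF to KDR, was at 5.88, 13.4 and 12.7 RPKM in OFT-banded hearts and at 11.2, 21.9 and 19.5 RPKM in sham hearts. Heart 6 was the lowest, and sham heart 38 lay among the OFT-banded hearts. This was -0.69 on the log2 scale (standard error 0.35, unadjusted p = 0.0845 by limma), and -0.35 without heart 6. Within hearts NRP1 was 0.237, 0.450 and 0.551 times KDR in OFT-banded and 0.432, 0.608 and 0.601 times in sham hearts, a ratio chosen after the data were seen, with overlap (two-sided exact permutation p = 0.3). NRP2, its paralogue, was at 0.69 RPKM in heart 6 and 1.06 RPKM in heart 38 and between 3.05 and 4.11 RPKM in the other 4 hearts. HIF1A, an oxygen-sensing factor that turns on VEGFA, was at 33.2 to 38.2 RPKM in OFT-banded and 39.4 to 47.4 RPKM in sham hearts, without overlap (log2 fold change -0.25, standard error 0.11, unadjusted p = 0.0517 from limma). The value was -0.10 with the erythroid covariate. EPAS1, its relative in endothelium, ranged from 8.62 to 23.4 RPKM in OFT-banded and from 15.6 to 46.0 RPKM in sham hearts. Its log2 fold change of -0.88 became -0.10 with the erythroid covariate. NCK2, an adaptor downstream of KDR, was at 52.8 to 71.3 against 67.5 to 79.4 RPKM (unadjusted p = 0.0764 from limma). FLT4, the receptor of lymphatic VEGF, was at 5.76 to 7.93 against 7.21 to 7.91 RPKM, and FIGF, which encodes the ligand VEGF-D, was at 0.82 to 1.63 against 1.04 to 1.45 RPKM.

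CDH5 (NM_204227), the cadherin of endothelial cell junctions, was at 68.3, 94.7 and 94.5 RPKM in OFT-banded hearts and at 89.8, 118 and 117 RPKM in sham hearts. Hearts 6 and 38 were again the lowest of their groups, and heart 38 lay below OFT-banded hearts 11 and 17. The means were 85.8 ± 15.2 and 108 ± 15.8 RPKM (SD, n = 3 each). For CDH5 the log2 fold change was -0.33 (standard error 0.16, 95% interval -0.72 to 0.05, unadjusted p = 0.0798 and adjusted p = 0.543 from limma). It went to -0.18 without heart 6, to -0.46 without heart 38 and to -0.19 with the erythroid covariate. KDR was 0.364, 0.315 and 0.243 times CDH5 in OFT-banded hearts and 0.289, 0.306 and 0.278 times in sham hearts, with no difference beyond the spread (exact permutation test, two-sided, p = 0.8). ANGPT1 was 0.479, 0.340 and 0.328 times CDH5 in OFT-banded and 0.518, 0.357 and 0.366 times in sham hearts, a ratio chosen after the data were seen. Hearts 6 and 38 had the highest values of this ratio, and the groups overlapped (exact permutation test, two-sided, p = 0.5).

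Markers of endothelium were split by value much as all tested transcripts were. Values were read for 20 of the 39 genes of the endothelial list, which summed to 748 to 822 RPKM in OFT-banded and 691 to 903 RPKM in sham hearts, with overlap. Of these 20, 7 were higher and 13 lower by value, none with an adjusted p under 0.05 and 1 with an unadjusted p under 0.05 from limma, and the median log2 fold change was -0.09. Over all tested transcripts 63.2% were lower by value, the median was -0.07 and 8.57% had an unadjusted p under 0.05 from limma. Without heart 6, 11 of the 20 were higher and 9 lower, and without heart 48 both counts were 10. With the erythroid covariate 11 of the 20 were higher and 9 lower, with a median of 0.01. The count with an unadjusted p under 0.05 was 5 without heart 38 and 0 without heart 6, 11 or 48. Over all tested transcripts it also rose without heart 38, from 405 to 651 of 4726. EGFL7, a protein secreted by endothelial cells, was at 124, 114 and 119 RPKM in OFT-banded hearts and at 102, 111 and 114 RPKM in sham hearts. It was higher in every OFT-banded heart than in every sham heart, but by a narrow gap (log2 fold change 0.13, unadjusted p = 0.150 from limma), where 5.23% of all tested transcripts were higher without overlap. FLI1, an ETS factor of endothelium and blood, was at 34.6 to 39.6 against 35.1 to 40.5 RPKM. The 3 genes with the smallest p were TAL1, GATA2 and LMO2, with log2 fold changes of -0.84, -0.73 and -0.36 (unadjusted p = 0.0484, 0.0611 and 0.0616 from limma). All are also transcription regulators of blood cells. With the erythroid covariate their log2 fold changes went to 0.25, 0.11 and -0.04. TAL1 was at 62.2 RPKM in heart 42, where the erythroid rows were highest. That covariate differs between the groups without overlap, and the part of blood content in these 3 genes was not tested. Of 12 tested genes of cell junctions 3 were higher and 9 lower by value, with a median of -0.24, where 63.2% of all tested transcripts were lower. With the erythroid covariate the split was 6 and 6, with a median of -0.01. The lowest p belonged to the connexins of arterial endothelium, GJA4 at 45.5, 31.3 and 35.6 RPKM in OFT-banded and 47.1, 52.2 and 45.0 RPKM in sham hearts, and GJA5 at 170 to 212 against 212 to 256 RPKM (log2 fold changes -0.37 and -0.27, unadjusted p = 0.0393 and 0.0489, adjusted p = 0.543 each by limma). GJA5 is also a connexin of atrial muscle and the conduction system. JUP, plakoglobin, was at 179 to 206 RPKM in OFT-banded and 213 to 215 RPKM in sham hearts, without overlap (unadjusted p = 0.0641 from limma).

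**Figure D3:**
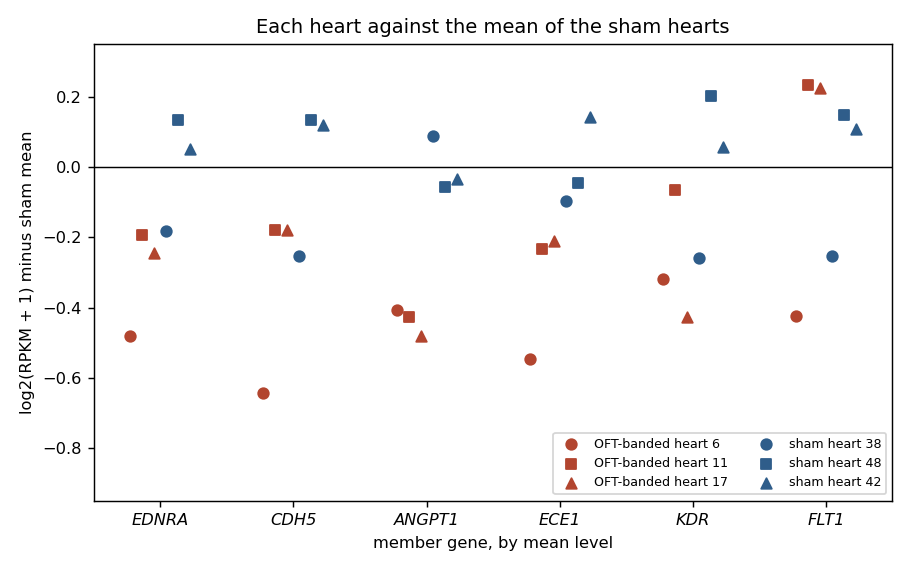
Log2(RPKM + 1) of each heart minus the mean of the 3 sham hearts for the 6 tested members, ordered by mean level (red OFT-banded, blue sham; circles hearts 6 and 38, squares 11 and 48, triangles 17 and 42). In ANGPT1 the OFT-banded hearts lie together between -0.48 and -0.41, while in CDH5, EDNRA, ECE1 and FLT1 heart 6 lies apart below hearts 11 and 17.

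EDNRA (NM_204119), the receptor through which endothelin 1 acts on mesenchyme and muscle, had the highest mean of the members. It was at 79.9, 97.8 and 94.3 RPKM in OFT-banded hearts and at 98.6, 123 and 116 RPKM in sham hearts. The groups did not overlap, but the highest OFT-banded heart and the lowest sham heart nearly met. The means were 90.7 ± 9.48 and 112 ± 12.5 RPKM (SD, n = 3 each), 19.4% lower in OFT-banded hearts. For EDNRA this was a log2 fold change of -0.31 (standard error 0.12, 95% interval -0.58 to -0.03, unadjusted p = 0.0340 and adjusted p = 0.543 by limma). The value was -0.29 with the erythroid covariate (unadjusted p = 0.262 from limma). It was -0.22 without heart 6, and the unadjusted p was then 0.0982 in limma.

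ECE1 (NM_204717), the protease that releases active endothelin, was at 25.9, 32.4 and 33.0 RPKM in OFT-banded hearts and at 35.8, 37.1 and 42.4 RPKM in sham hearts. The highest OFT-banded heart was below the lowest sham heart. The means were 30.4 ± 3.92 and 38.4 ± 3.49 RPKM (SD, n = 3 each), 20.8% lower in OFT-banded hearts. The corresponding log2 fold change was -0.33 (standard error 0.13, 95% interval -0.63 to -0.04, unadjusted p = 0.0331 and adjusted p = 0.543 from limma). It went to -0.22 without heart 6 and to -0.11 with the erythroid covariate. With the W-linked covariate it was -0.25 (unadjusted p = 0.0407 and adjusted p = 0.414 from limma). Within hearts, ECE1 was 0.324, 0.331 and 0.350 times EDNRA in OFT-banded hearts and 0.363, 0.302 and 0.366 times in sham hearts. The difference in log2 ratio of enzyme to receptor was -0.03, within the spread, and turned in sign without heart 38 or 42 (two-sided exact permutation p = 0.8). Relative to CDH5, ECE1 was 0.380, 0.342 and 0.349 in OFT-banded and 0.398, 0.315 and 0.363 in sham hearts, again with overlap.

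Of the other endothelin genes, EDNRB, the receptor of endothelium and neural crest, was at 104, 110 and 116 RPKM in OFT-banded hearts and at 145, 101 and 135 RPKM in sham hearts. Its level was thus similar to that of EDNRA, and the groups overlapped through sham heart 48 (log2 fold change -0.19, standard error 0.14). EDNRA was 0.770, 0.892 and 0.810 times EDNRB in OFT-banded and 0.682, 1.21 and 0.861 times in sham hearts, a ratio chosen after the data were seen. EDNRB2, a further receptor of birds, did not exceed 0.41 RPKM. The ligand gene EDN2 was at 8.52, 5.64 and 12.8 RPKM in OFT-banded hearts and at 6.97, 7.17 and 4.22 RPKM in sham hearts, with overlap. MME, a protease that degrades endothelins among other peptides, lay between 0.68 and 2.41 RPKM. GNA11, a G protein that couples to endothelin receptors, was at 32.5 to 40.1 against 29.5 to 33.7 RPKM (log2 fold change 0.24, unadjusted p = 0.0723 from limma), while its relative GNAQ was at 3.21 to 4.98 against 5.11 to 6.17 RPKM, lower without overlap. The target HAND2, a transcription factor of outflow tract and right ventricle, was at 324 to 407 RPKM in OFT-banded and 297 to 355 RPKM in sham hearts, and DLX5 and DLX6, targets in the pharyngeal arches, did not exceed 0.36 RPKM. Values were read for 13 of the 18 genes of the endothelin list. Of the 10 tested, 3 were higher and 7 lower by value, none with an adjusted p under 0.05 and 2, EDNRA and ECE1, with an unadjusted p under 0.05 from limma (0 without heart 6 or 42), and the median log2 fold change was -0.12. Without heart 48, 5 were higher and 5 lower. With the erythroid covariate 4 were higher and 6 lower, 1 with an unadjusted p under 0.05 from limma, and the median was -0.16. In the main fit 63.2% of all tested transcripts were lower by value, and 8.57% had an unadjusted p under 0.05 from limma.

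**Figure D4:**
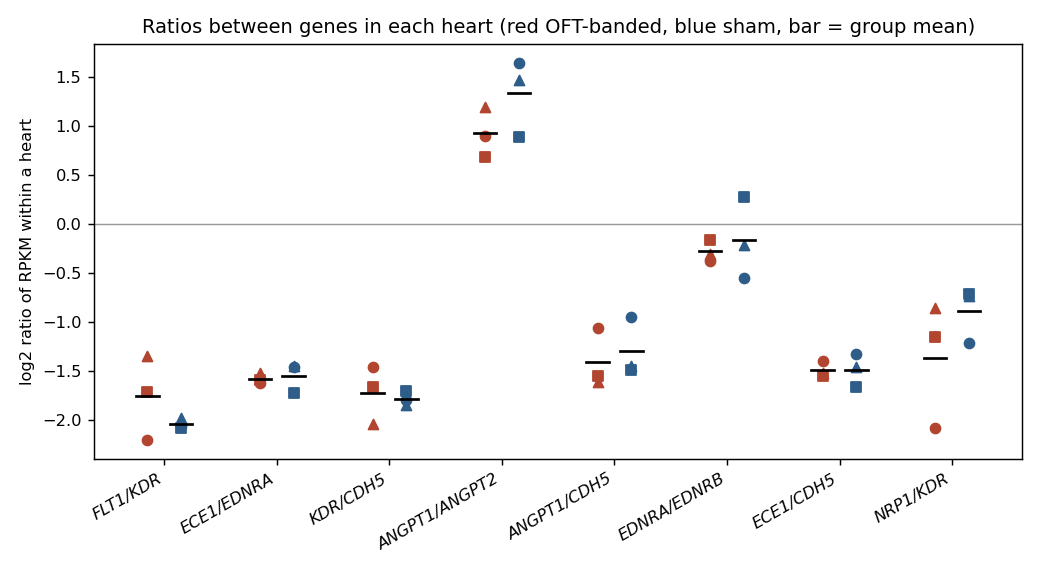
Log2 ratio of RPKM between pairs of genes in each heart (points; red OFT-banded, blue sham; circles hearts 6 and 38, squares 11 and 48, triangles 17 and 42), with the mean of each group as a bar; 5 of the ratios were added after the data were seen. The groups overlap in all 8 ratios, and the groups' means of ECE1/EDNRA and ECE1/CDH5 nearly coincide.

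On the RPKM scale, which is per length of transcript, EDNRA and CDH5 stood highest, then ANGPT1 and ECE1, then KDR and FLT1. EDNRA exceeded CDH5 in 4 of 6 hearts and ANGPT1 exceeded ECE1 in 4 of 6, so the order within these pairs did not hold beyond their spread. CDH5 exceeded ANGPT1, and KDR exceeded FLT1, in 6 of 6 hearts and with ranges that did not meet. ECE1 exceeded KDR in 6 of 6 hearts, although their ranges met. The median coefficient of variation over the 6 hearts was 17.5% for the members and 13.6% over all tested transcripts.

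Members differed in how they varied among hearts of the same group. On deviations from the group means over 6 hearts, CDH5 went with FLT1 (Pearson's r = 0.987), EDNRA (r = 0.972) and ECE1 (r = 0.867), and less with KDR (r = 0.588). ANGPT1 went the other way, with r = -0.807 against CDH5 and r = -0.826 against EDNRA, although its deviations were small, from -0.06 to 0.09. With the group means left in, r over the 6 hearts was 0.486 for ANGPT1 with CDH5 and 0.626 with EDNRA, and 0.744 for FLT1 with CDH5. How common such r on deviations are among all transcripts was not tested. These values describe 6 libraries, in which hearts 6 and 38 had the largest deviations of CDH5 and EDNRA, and the 6 deviations carry only 4 degrees of freedom. Heart 6 was the lowest OFT-banded heart in 4 of the 6 members (66.7%, against 54.9% of all tested transcripts) and heart 38 the lowest sham heart in 5 of 6 (83.3%, against 46.5%). Among transcripts outside the lists, those most like CDH5 over the 6 hearts on log2(RPKM + 1) were SCNN1A (r = 0.995), PREPL (r = 0.994), ENTPD1 (r = 0.993), ABTB1 (r = 0.993) and NGFR (r = 0.992). Such likeness was common, since 656 of 4725 transcripts, or 13.9%, had an r over 0.9 with CDH5. Among the listed genes NRP1 was the most alike (r = 0.997), followed by CDH2, the cadherin of heart muscle and mesenchyme (r = 0.987).

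Most tested genes of the flow and shear list were higher by value, where 36.8% of all tested transcripts were higher. Values were read for 15 of the 29 genes of this list, and of its 14 tested transcripts 9 were higher and 5 lower by value, with a median log2 fold change of 0.18, none with an adjusted p under 0.05 and 1, CTGF, with an unadjusted p under 0.05 from limma. CTGF, a secreted matrix protein induced by mechanical load, was at 82.7, 75.2 and 229 RPKM in OFT-banded hearts and at 59.7, 56.7 and 59.4 RPKM in sham hearts. CYR61, of the same family, was at 51.7, 51.0 and 266 RPKM in OFT-banded hearts and at 47.2, 39.9 and 37.7 RPKM in sham hearts. Both were higher in every OFT-banded heart than in every sham heart, and heart 17 stood far above the rest. They were 2 of the 14 tested, where 5.23% of all tested transcripts were higher without overlap. The log2 fold change of CTGF was 0.93 (standard error 0.39, unadjusted p = 0.0467 by limma). Without heart 17 it was 0.42 (unadjusted p = 0.00447 and adjusted p = 0.592 by limma), and with the erythroid covariate 1.87. That of CYR61 was 1.09 (standard error 0.60, unadjusted p = 0.110 from limma), 0.30 without heart 17 and 2.33 with the erythroid covariate. In heart 17 the early response genes EGR1 and FOS were also 2.36 and 2.46 times the next highest heart, and JUN was 1.54 times it. Without heart 17 the list had 6 higher and 8 lower by value, with a median of -0.07, and with the erythroid covariate 14 higher and 0 lower, with a median of 0.35. The count higher with an unadjusted p under 0.05 from limma was 4 without heart 6 and 0 without heart 38, 48 or 42. DUSP1, a phosphatase induced with them, was at 36.8 to 47.2 RPKM in OFT-banded and 29.8 to 37.7 RPKM in sham hearts. SMAD6, an inhibitor of BMP signalling that is high in valves and outflow endothelium, was at 249 to 265 against 217 to 257 RPKM.

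**Figure D5:**
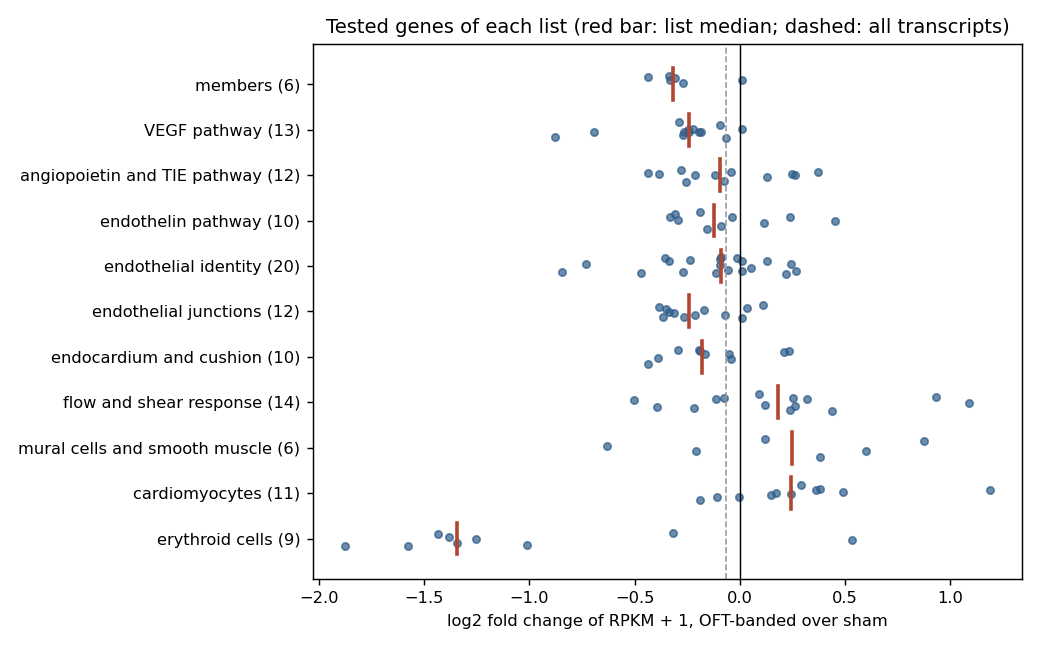
Log2 fold change of RPKM + 1 between OFT-banded and sham hearts for the tested genes of each list shown (points, number tested in brackets), with each list's median as a red bar, 0 as a solid line and the median of all tested transcripts, -0.07, as a dashed line. Points are spread vertically only to separate them. The leukocyte and thrombocyte, epicardium and fibroblast, and neural crest lists are not shown. The members have a median of -0.32, the endothelial list lies near the median of all transcripts, and the erythroid list lies farthest below it.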

How the data were processed

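Per the labels and the paper, the authors depleted globin transcripts and made strand-specific paired-end libraries. The submitters' processing notes name TopHat, HTSeq, DESeq and the build galGal4, with versions not given in the sources used here. The deposited values are RPKM, computed by the authors, with 1 value per RefSeq transcript and heart. Column names show each heart's group and a number found in no label, and only the group was used. The members and lists were chosen with earlier results of these data known.

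Transcripts with a mean of at least 1 RPKM over the hearts were tested on log2(RPKM + 1). The test was limma 3.58.1 in R 4.3.3 (intensity trend, two-sided, Benjamini-Hochberg adjustment at 0.05). The study's DESeq comparison of these hearts, which called GBX2 among other genes, needs counts and was not repeated. Ratios were tested by exact permutation in scipy 1.17.1. The fit was run on simulated data with log2 changes of 1 and 2, of which 73% and 97% were called. These changes are larger than those of the members, and the simulated transcripts were independent. The power for the member differences was thus not tested. Of all transcripts, 94.2% matched a GRCg7b gene table, used only for names, W linkage and microRNA lengths. Hearts are separate embryos. The intervals of limma are for the difference in group means, with a variance drawn towards that of other transcripts of similar level.

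Named were every member, the ligands and receptors of the 3 pathway lists, the tested genes with the smallest p of each other list (at most 4), and the 5 transcripts most like CDH5. FLI1, HAND2, MYL2, DLX5, DLX6, EGFL7, JUN, SMAD6, EGR1, FOS, CDH2, MME, SOX10, HBAA and HBZ were chosen after their values were seen. So were MYH11, MYH7, MYBPC3, NKX2-5, TFRC, RHAG, FECH and CA2. A gene of the angiopoietin list is not reported here by name. Planned ratios with TEK, TIE1 or KLF2, and VEGFA/KDR, were not computed. The ratios with ANGPT2, EDNRB, NRP1 and ANGPT1/CDH5 and ECE1/CDH5, and list counts with each heart left out, were added after the data were seen. Alternatives were another pseudocount (0.1), no filter, a filter at 5 RPKM, TPM (each heart rescaled to a sum of 1000000), scaling by median ratios, leaving out globin genes, no trend, robust moderation, each heart left out, and the W-linked or erythroid level as a covariate.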

Additional observations from a re-analysis of the deposited data

How the results depend on the processing

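No transcript had an adjusted p under 0.05 from limma in any of the 16 alternatives. The unadjusted count of 405 ranged from 196 to 651 when each heart was left out. It was 84 with the erythroid covariate and 554 with the W-linked covariate. The count of members with an unadjusted p under 0.05, 3 of 6, ranged from 1 to 5 when each heart was left out. This count was 1 with the erythroid covariate and 4 with the W-linked covariate. In every alternative ANGPT1, EDNRA, ECE1, CDH5 and KDR were lower in OFT-banded hearts, with log2 fold changes of -0.51 to -0.37, -0.40 to -0.21, -0.40 to -0.11, -0.46 to -0.18 and -0.45 to -0.17. Over these settings the adjusted p of ANGPT1 ranged from 0.269 to 1.00 (limma). FLT1 turned to -0.0206 with TPM and to -0.0540 with the globin genes left out, and ranged from -0.12 to 0.23 when each heart was left out (-0.10 to 0.24 for the ratio of its group means).

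With each heart left out, the difference in log2 ratio ranged from -0.12 to 0.0165 for ECE1/EDNRA, -0.0729 to 0.22 for KDR/CDH5, -0.29 to 0.0619 for ANGPT1/CDH5, -0.31 to 0.10 for EDNRA/EDNRB and -0.0935 to 0.0761 for ECE1/CDH5, which also turned from -0.0028 to 0.0035 on log2(RPKM + 1). The range was 0.0849 to 0.51 for FLT1/KDR (lowest without heart 17), -0.63 to -0.25 for ANGPT1/ANGPT2 (nearest 0 without heart 38) and -0.73 to -0.12 for NRP1/KDR (nearest 0 without heart 6). The cause of these turns was not tested. No scaling moved the median of all transcripts by over 0.07 from -0.07. No paired analysis was possible because the column names carry none of the labels' replicate numbers, and nothing in the sources pairs hearts of the 2 groups. Precision is limited by the 3 hearts per group, and low values also limit what can be read of VEGFA, EDNRB2, DLX5, DLX6 and SOX10.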

Other observations

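Among genes of the endocardium and cushions, 2 of 10 tested were higher and 8 lower by value (5 and 5 without heart 6, 8 and 2 with the erythroid covariate, 6 and 4 with the W-linked covariate), with a median log2 fold change of -0.18 and none with an adjusted p under 0.05 from limma. Beside these counts and those of the lists below, 63.2% of all tested transcripts were lower and 36.8% higher by value. PDCD10, a partner of the cerebral cavernous malformation proteins that steady endothelium under flow, was at 117, 118 and 112 RPKM in OFT-banded hearts and at 107, 101 and 91.8 RPKM in sham hearts, higher without overlap (unadjusted p = 0.0407 from limma). Its partner KRIT1 was at 20.5 to 25.1 against 24.2 to 27.7 RPKM, and NOTCH1, a receptor of endocardium and arteries, at 18.3 to 20.7 against 20.4 to 24.1 RPKM.

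Of 6 tested genes of mural cells and smooth muscle 4 were higher and 2 lower by value, with a median of 0.25 (the same split, with a median of 0.42, with the erythroid covariate). Without heart 17 the split was 3 and 3, with a median of 0.19. The 2 lower were MYH11, a smooth muscle myosin heavy chain, and TBX18, with log2 fold changes of -0.21 and -0.63 (unadjusted p = 0.216 and 0.153 from limma). MYLK, a kinase of smooth muscle contraction, was at 9.95, 13.9 and 31.5 RPKM in OFT-banded hearts and at 8.72, 7.98 and 8.80 RPKM in sham hearts, higher without overlap and highest in heart 17 (log2 fold change 0.88, unadjusted p = 0.0471 from limma, and 0.43 without heart 17). TAGLN, an actin-binding protein of smooth muscle, was at 140, 195 and 225 RPKM in OFT-banded hearts and at 154, 91.9 and 124 RPKM in sham hearts, and MCAM, an adhesion molecule of vessels, at 86.6 to 103 against 55.5 to 90.7 RPKM (unadjusted p = 0.0340 and 0.0643 from limma). Among genes of the epicardium and fibroblasts 4 were higher and 6 lower by value, a split that turned to 6 and 4 without heart 6 and to 8 and 2 with the erythroid or the W-linked covariate, and was 2 and 8 without heart 11 or 38. FN1, fibronectin, was at 221, 309 and 294 RPKM in OFT-banded hearts and at 345, 357 and 354 RPKM in sham hearts, lower without overlap (log2 fold change -0.37, unadjusted p = 0.0233 and adjusted p = 0.543 by limma, and -0.22 without heart 6). Of leukocyte and thrombocyte genes 3 were higher and 4 lower by value (4 and 3 with the erythroid covariate), and PTPRC, the common leukocyte antigen, did not exceed 2.20 RPKM. Of 11 tested cardiomyocyte genes 8 were higher by value (6 with the erythroid covariate), led by the load-responsive peptide gene NPPB at 2038, 3662 and 7027 RPKM in OFT-banded hearts and 2053, 1916 and 1124 RPKM in sham hearts (log2 fold change 1.19, unadjusted p = 0.0312 from limma, and 0.73 without heart 17). The 3 lower were MYH7, MYBPC3 and NKX2-5, with log2 fold changes of -0.19, -0.11 and -0.0022 (unadjusted p = 0.355, 0.629 and 0.990 from limma). Of 4 tested neural crest genes 3 were higher by value, also with the erythroid covariate. GBX2, a transcription factor of neural crest and hindbrain, was at 51.7, 41.9 and 62.0 RPKM in OFT-banded hearts and at 24.4, 28.2 and 17.3 RPKM in sham hearts, higher without overlap (log2 fold change 1.13, unadjusted p = 0.000909 and adjusted p = 0.543 from limma), while SOX10 did not exceed 0.28 RPKM, and TWIST1 was at 15.4 to 16.9 against 10.7 to 14.1 RPKM, higher without overlap (unadjusted p = 0.0523 from limma).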
